A study of Homo sapiens with 6 samples.

Results

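GPX1 and 9 further enzymes that remove peroxides, superoxide or quinones were followed in libraries labeled as the SEM line, with and without induced EGR3. The 10 genes are GPX1, GPX4, PRDX1, PRDX2, TXN, TXNRD1, CAT, SOD1, SOD2 and NQO1, and they were taken by symbol from a table of 35410 genes. GPX1 was selected on its counts in these libraries, which were close to 0 in the control line, so its levels are given as a description without a test. The 9 others are the common companions of GPX1 in peroxide and superoxide metabolism.

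RNA was measured in cells labeled as SEM, an established line of precursor B acute lymphoblastic leukemia (proB-ALL) that carries the KMT2A::AFF1 fusion. SEM::EGR3 carried a doxycycline-inducible EGR3, a zinc finger transcription factor of the early growth response family, and SEM::mock carried the empty vector. Both lines received 1 µg/mL doxycycline for 48 h before RNA was taken, so the inducer is common to both groups, and each line was measured in 3 biological replicates. The method was MACE-Seq, which counts polyadenylated RNA by tags near the 3′ end, so that 1 transcript gives about the same count whatever its length. Counts per library summed to between 5286115 and 6181388 in SEM::mock and to between 7293092 and 15106018 in SEM::EGR3. Levels are given as CPM, the count of a gene per 1000000 counts of its library, after normalization for library composition, with the SD over 3 libraries.

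Cells convert superoxide to hydrogen peroxide with superoxide dismutases and then remove the peroxide by separate routes. Glutathione peroxidases use glutathione, peroxiredoxins use thioredoxin, and catalase needs no cofactor of this kind. Thioredoxin is recharged by thioredoxin reductase at the expense of NADPH, and the transcription factor NRF2 controls many of these genes. In red cell precursors these enzymes protect hemoglobin and the membrane, and GPX1, PRDX2 and CAT are known for high levels in that lineage.

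GPX1, GPX4 and TXNRD1 are selenoproteins, in which a UGA codon is read as selenocysteine instead of as a stop. This codon carries the residue that does the catalysis, and the genes that load it are therefore described together with the enzymes below. The coding DNA around that codon is shown to let the related peroxidases be compared, with the TGA codon in capitals, read from GENCODE release 29 transcripts (GRCh38). Each peroxidase is shown with 45 bases, and TXNRD1 with 33, since its stop codon (taa, the last 3) follows 1 codon after the TGA.
GPX1: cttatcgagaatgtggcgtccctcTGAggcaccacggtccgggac
GPX2: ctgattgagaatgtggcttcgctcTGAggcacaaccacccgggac
GPX3: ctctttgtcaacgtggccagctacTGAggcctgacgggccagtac
GPX4: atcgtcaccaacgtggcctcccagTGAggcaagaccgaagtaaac
TXNRD1: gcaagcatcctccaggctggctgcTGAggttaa
The GPX1 codon is number 49 of the coding sequence, at chr3:49358132-49358134 on the minus strand, and the GPX4 codon is number 73, at chr19:1105403-1105405 on the plus strand. The TXNRD1 codon lies at chr12:104348413-104348415 on the plus strand. Of the 45 bases, GPX2 had 37 in common with GPX1 (82.2%), GPX3 had 28 (62.2%) and GPX4 had 26 (57.8%), while TXNRD1 had 12 of its 33 (36.4%).

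EGR3 itself was close to absent in the control line and abundant in the induced line. The control libraries held 8, 10 and 6 counts of it and the induced ones 9768, 4952 and 5557, or 1.42 ± 0.249 against 637 ± 27.1 CPM (log2 fold change 8.78, SE 0.11, adjusted p = 1.27e-26 by edgeR's quasi-likelihood test). The lines also differed in markers that go beyond the transgene. Of 12 markers of the B lineage, 8 had at most 3 counts in each SEM::mock library, which goes against the label of these libraries as proB cells, and 3 had at most 3 counts in each SEM::EGR3 library. EBF1, a factor that starts the B lineage, had no count in SEM::mock and 2058, 925 and 1145 in SEM::EGR3. DNTT, RAG2 and BLNK were near 0 in both lines, with no count in SEM::mock and at most 2 in any SEM::EGR3 library. Of the 8 markers tested 7 rose, and CD24, a surface protein that is not limited to B cells, fell from 144 ± 11.2 to 23.5 ± 0.530 CPM. The summed level of the 12 was 134 to 158 CPM in SEM::mock, most of it CD24, and 495 to 527 CPM in SEM::EGR3. PAX5, the factor that fixes B cell identity, had 1, 1 and 2 counts against 3410, 1443 and 1760. The 8 targets of KMT2A fusions summed to 21.9 to 25.1 CPM in SEM::mock and to 587 to 624 CPM in SEM::EGR3, and all 8 rose. Of the 8, 4 had at most 3 counts in each SEM::mock library, and HOXA7 and LAMP5 had no count there. Most of the SEM::mock sum was HOXA10 at 13.6 ± 1.16 CPM and MEIS1 at 8.29 ± 0.980 CPM, against 61.9 ± 2.99 and 47.2 ± 2.91 CPM in SEM::EGR3.

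Erythroid transcripts were present in all 6 libraries, which goes against the label of both lines as proB cells alone. The 13 erythroid markers summed to 4985 to 5289 CPM in SEM::mock and to 6197 to 6446 CPM in SEM::EGR3, and of 12 tested 9 fell and 3 rose. GATA1, the main erythroid transcription factor, was at 336 ± 9.68 CPM in SEM::mock and 286 ± 8.71 CPM in SEM::EGR3. KLF1, another erythroid factor, was at 161 ± 5.52 and 35.8 ± 1.52 CPM. The other marker lists were lower in level. The myeloid markers summed to 297 to 306 CPM in SEM::mock against 233 to 236 CPM, with MPO at 0 in SEM::mock, and 2 of 5 tested rose and 2 fell. CEBPA, a myeloid transcription factor, rose from 12.4 ± 0.766 to 127 ± 1.22 CPM, and LYZ, lysozyme, fell from 155 ± 8.75 to 42.7 ± 1.32 CPM. T cell markers had similar sums, 59.7 to 65.3 against 59.1 to 64.9 CPM with CD7 at 0 in SEM::mock, but the 4 tested genes moved in opposite directions. CD3D, a T cell receptor subunit, fell from 58.1 ± 2.33 to 6.26 ± 0.900 CPM and CD3E fell too, while the kinase LCK rose from 0.131 ± 0.226 to 52.2 ± 1.79 CPM and CD2 rose as well. Megakaryocyte markers summed to 14.6 to 15.2 against 17.9 to 19.1 CPM with GP9 at 0 in SEM::mock, and of 3 tested 2 rose and 1 fell. Nonhematopoietic markers summed to 881 to 921 against 496 to 529 CPM, where the keratins KRT8, KRT18 and KRT19 and EPCAM fell and the collagens COL1A1 and COL1A2 rose, COL1A1 from 3.62 ± 0.530 to 43.2 ± 0.894 CPM. All 3 SEM::mock libraries share these features, and all 3 SEM::EGR3 libraries also carry erythroid, keratin and EPCAM RNA. The levels of neither line can therefore be read as those of proB cells alone. Every difference below between the lines cannot be told apart from this difference in lineage markers, and no value without the libraries concerned can be given. In bulk RNA, a smaller number of cells of a type and less RNA per cell also cannot be told apart.

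GPX1 (ENSG00000233276, chr3:49357171-49358600, minus strand, GRCh38) encodes the abundant cytosolic glutathione peroxidase. GENCODE release 29 lists it as a polymorphic pseudogene. The SEM::mock libraries held 1, 0 and 3 counts of it, which is 0.177, 0 and 0.588 CPM. The SEM::EGR3 libraries held 3290, 1633 and 1868 counts, or 212, 220 and 206 CPM. No SEM::mock library had more than 3 counts, while the induced libraries lay close together. The mean was 0.255 ± 0.302 CPM in SEM::mock and 213 ± 6.78 CPM in SEM::EGR3 (n = 3 each). From the summed counts of 4 and 6791, the level was 888 times higher in SEM::EGR3, with an exact 95% interval of 347 to 3261 that covers counting error only. Of the 4 control counts 3 stood in SEM::mock replicate 3, and without that library the ratio was 2470 (443 to 97568), while without SEM::mock replicate 2 it was 571 (223 to 2097). Against 3 counts in each SEM::mock library (0.540 CPM), the limit taken for a count of 0, the level in SEM::EGR3 was 394 times higher. SEM::mock replicates 1 and 3 held counts, so this is a reference level and not a bound. The RNA of this enzyme was thus at the detection limit in the control line at this depth, which is not the same as absent.

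**Figure D1:**
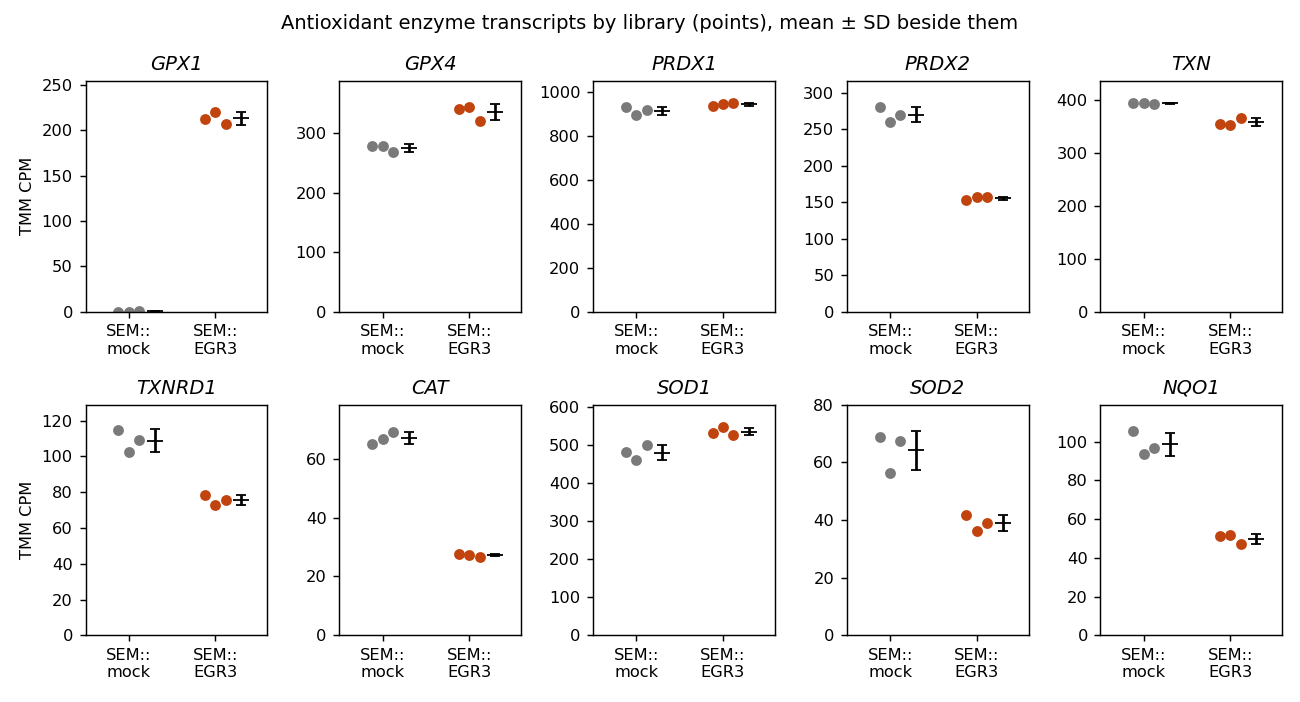
Level of each of the 10 genes in each library (CPM normalized by the trimmed mean of M-values, TMM, linear axis from 0, 1 panel per gene). Each point is 1 library, gray for SEM::mock and orange for SEM::EGR3, with the mean and SD of 3 beside them, and GPX1 lies below 1 CPM in the 3 control libraries and above 200 CPM in the 3 induced libraries, and the other 9 genes differ far less.

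GPX1 reads could in principle be shared with processed copies of the gene. The copies GPX1P1 and GPX1P2 together had 10 counts over all 6 libraries, all of them in SEM::EGR3, which was 0.147% of the counts of GPX1 and its copies. No count of either copy was seen in the control line.

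GPX1 took a large share of the glutathione peroxidase RNA in the induced line. Among all listed members of the family, it made up 0.0598%, 0% and 0.205% of the counts in the SEM::mock libraries, and the count of 0 in the second allows up to 0.210%. It made up 37.6%, 38.3% and 38.4% in the SEM::EGR3 libraries. The share of GPX4 was 94.2% ± 0.720 in SEM::mock and 59.95% ± 0.503 in SEM::EGR3. The remaining paralogs stayed minor. GPX2, the epithelial enzyme, had no count in SEM::mock and 5, 0 and 1 in SEM::EGR3, and GPX3, the plasma enzyme, had 0, 2 and 0 against 6, 0 and 4. GPX5 had between 2 and 6 counts in every library and GPX7 between 0 and 3, and none of these 4 passed the filter on low counts. GPX6 had no row. GPX8, a paralog of the endoplasmic reticulum, fell from 15.3 ± 1.39 to 9.94 ± 0.723 CPM (adjusted p = 2.26e-04).

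**Figure D2:**
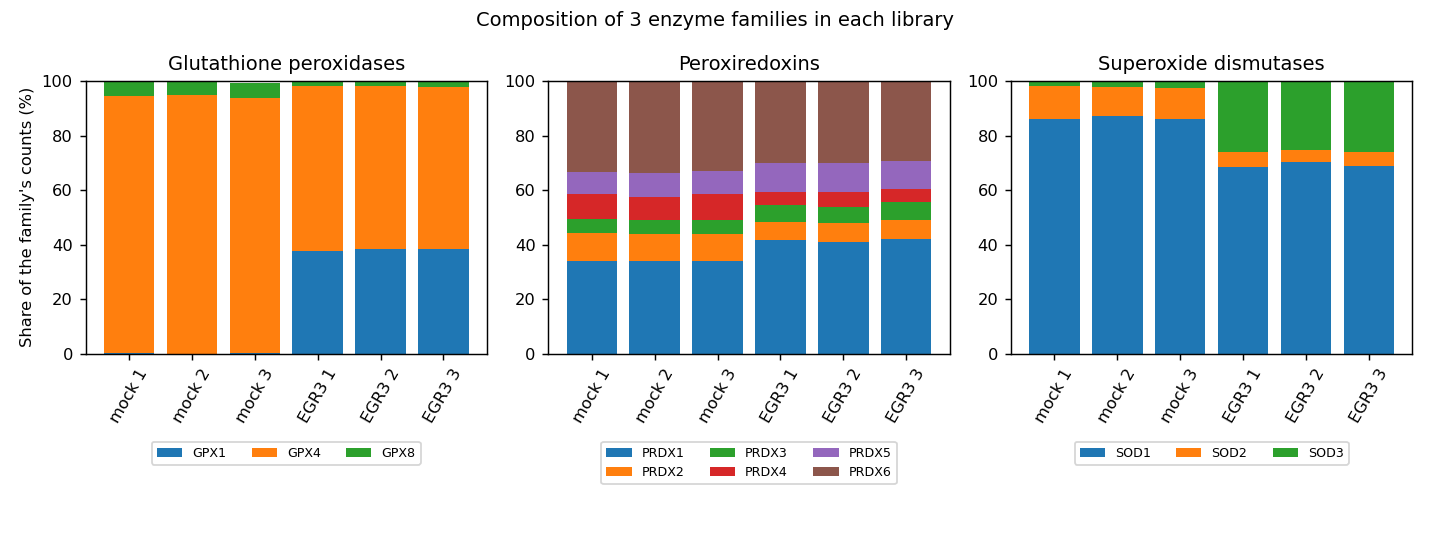
Composition of 3 enzyme families in each library, as the percent of the family's counts taken by each gene. Each bar is 1 library and each color 1 gene, genes with few counts are not drawn, GPX1 fills 37.6% to 38.4% of the glutathione peroxidase counts in SEM::EGR3, and SOD3 fills 25.7% on average of the superoxide dismutase counts there.

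The genes around GPX1 on chromosome 3 were compared to see whether the whole stretch was silent in the control line. The 10 nearest listed genes with a count, 5 on each side, spanned 364 kb. RHOA, the small GTPase whose midpoint lies 28.2 kb away, was at 351 ± 18.2 CPM in SEM::mock and rose to 532 ± 21.4 CPM (log2 fold change 0.60, SE 0.05, adjusted p = 4.45e-10). The lowest position of its annotated span, chr3:49359145, lies close to the highest of GPX1, chr3:49358600. Both genes are on the minus strand, so the 3′ end of RHOA faces the start of GPX1. USP4, a deubiquitinase, rose by 0.61 (adjusted p = 1.66e-05) and TCTA by 0.72 (adjusted p = 2.44e-07) on the log2 scale, and C3orf62 rose by 0.52 (adjusted p = 0.00753). KLHDC8B and DAG1, the gene of dystroglycan, both had a log2 fold change of −0.38 (adjusted p = 0.00140 and 0.000629). IHO1, AC121247.1, RHOA-IT1 and AMT had too few counts to be tested, and 3 of the 10 had no count in SEM::mock. The neighbors that were transcribed in SEM::mock included the gene next to GPX1, and none of those tested differed by a full log2 unit.

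**Figure D3:**
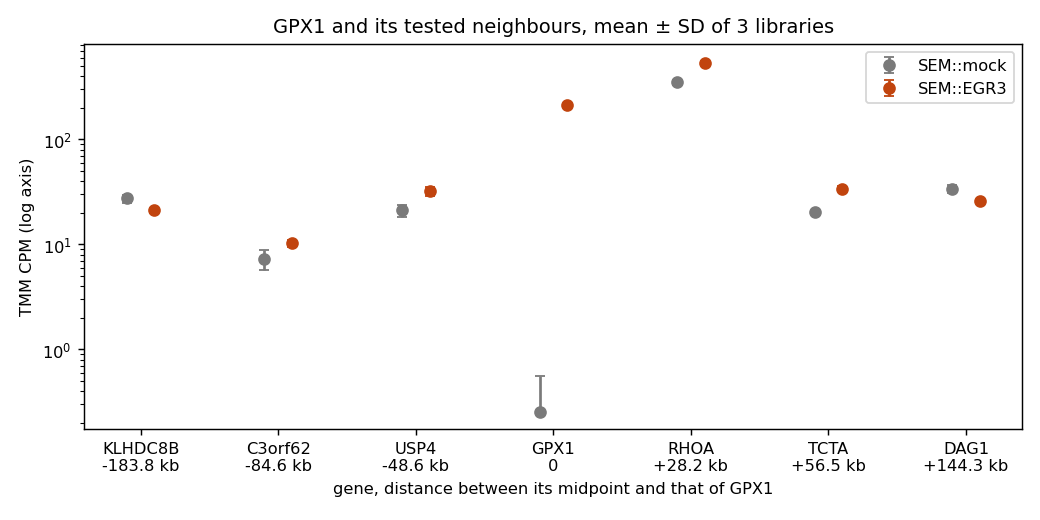
Mean level (TMM CPM, log axis) of GPX1 and the 6 tested genes among its 10 nearest, in chromosome order with the distance of each midpoint from that of GPX1 in kb. Points are means and bars the SD of 3 libraries per line, drawn upward only where the SD exceeds the mean, RHOA lies at 351 CPM in SEM::mock beside GPX1 at 0.255 CPM.

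Genes with a level pattern like that of GPX1 were ranked by the root mean square difference of log2 CPM over the 6 libraries, and 13 tested genes lay within 1 log2 unit. The 5 closest were PAX5 (0.354), the receptor kinase FLT3 (0.434), the lipocalin LCN6 (0.443), PROM1, the surface antigen CD133 (0.565), and the adaptor LAT2 (0.717). FLT3 was at 0.320 ± 0.411 CPM in SEM::mock and 319 ± 10.1 CPM in SEM::EGR3. PROM1 was at 0.0654 and 162 ± 5.08 CPM, and LAT2 at 0.311 and 113 ± 8.16 CPM. PAX5 is one of the B lineage markers given above. The ranking used the same values on which GPX1 was chosen, so genes near 0 in SEM::mock were bound to rank first. This likeness is a description over 2 groups of 3 libraries.

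Of the 9 other enzymes, 8 differed between the lines, 2 being higher in SEM::EGR3 and 6 lower, and PRDX1 did not pass the test. Of all 15465 genes tested, 68.5% were called at an adjusted p under 0.05, with 36.5% higher and 32.0% lower. The rule that chose the genes used this same contrast, so nothing is read from the count. All 9 had libraries that did not overlap between the lines, as had 70.1% of all genes. In size, only CAT passed a log2 fold change of 1 in either direction, which 25.2% of all tested genes did. NQO1 lay just short of it at −0.98. The median log2 fold change of the 9 was −0.52, and that of all tested genes was 0.03.

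**Figure D4:**
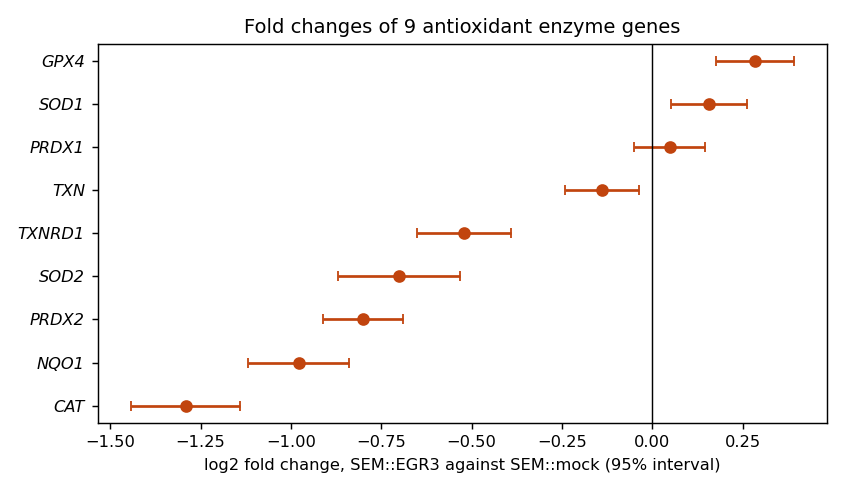
Log2 fold change of SEM::EGR3 over SEM::mock for the 9 enzymes other than GPX1, with 95% confidence intervals from edgeR. GPX4 and SOD1 lie above 0, the interval of PRDX1 spans 0, and 6 genes lie below 0, from TXN at −0.14 to CAT at −1.29.

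GPX4 (ENSG00000167468, chr19:1103926-1106791, plus strand) is the peroxidase that reduces lipid peroxides within membranes and so holds back ferroptosis. Its levels were 278, 279 and 268 CPM in SEM::mock and 341, 344 and 320 CPM in SEM::EGR3. Each induced library was higher than each control library. GPX4 rose by 21.8%, from 275 ± 6.41 to 335 ± 13.2 CPM (log2 fold change 0.28, SE 0.05, 95% interval 0.18 to 0.39, adjusted p = 3.96e-05). In SEM::mock GPX4 was the only glutathione peroxidase above 20 CPM, and in SEM::EGR3 GPX1 was the other.

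The peroxiredoxins are thiol peroxidases, of which PRDX1 and PRDX2 work in the cytosol and PRDX2 is the major form of red cells. PRDX1 (ENSG00000117450, chr1:45511036-45523047, minus strand) was the most abundant of the 10 genes in both lines. It measured 931, 894 and 916 CPM in SEM::mock and 938, 945 and 951 CPM in SEM::EGR3, so the groups lay next to each other without overlapping. The difference did not pass the test (log2 fold change 0.05, SE 0.05, adjusted p = 0.378), and its 95% interval of −0.05 to 0.15 bounds it to a small change in either direction. Without normalization factors the log2 fold change was 0.13 with an adjusted p of 0.0217. PRDX2 (ENSG00000167815, chr19:12796820-12801859, minus strand) measured 281, 259.6 and 269.8 CPM in SEM::mock and 152, 157 and 157 CPM in SEM::EGR3. The induced libraries were all far below the control libraries, and PRDX2 fell by 42.5% (log2 fold change −0.80, SE 0.05, 95% interval −0.91 to −0.69, adjusted p = 1.88e-12). The annotated span of PRDX2 overlaps HOOK2 on the same strand, which held 5.87% of the counts of both genes. Within the family, the share of PRDX1 was 33.9% ± 0.0483 in SEM::mock and 41.5% ± 0.534 in SEM::EGR3, and that of PRDX2 was 10.02% ± 0.188 and 6.83% ± 0.0959.

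Of 6 peroxiredoxins listed and tested, 3 fell, none rose and 3 did not pass the test (median log2 fold change −0.18). PRDX4, the peroxiredoxin of the endoplasmic reticulum, fell from 247 ± 17.1 to 112 ± 7.65 CPM (log2 fold change −1.14, SE 0.06, adjusted p = 3.19e-14). PRDX6, which uses glutathione, fell from 898 ± 16.0 to 677 ± 12.1 CPM (adjusted p = 5.16e-08). The mitochondrial PRDX3 was at 137 ± 4.29 and 144 ± 4.54 CPM (adjusted p = 0.288), and PRDX5 at 228 ± 5.57 and 240.4 ± 13.2 CPM (adjusted p = 0.210).

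Thioredoxin and its reductase, which serve the peroxiredoxins, were both lower. TXN (ENSG00000136810, chr9:110243811-110256640, minus strand), the cytosolic thioredoxin, measured 394, 395 and 394 CPM in SEM::mock and 355, 354 and 367 CPM in SEM::EGR3. The control libraries were almost identical and all lay above the induced ones. TXN fell by 9.12% (log2 fold change −0.14, SE 0.05, 95% interval −0.24 to −0.04, adjusted p = 0.0169). This small change did not pass once SEM::EGR3 replicate 1 was left out (adjusted p = 0.0530) or normalization factors were omitted (log2 fold change −0.06, adjusted p = 0.288), nor with a minimum of 10 counts in every library (adjusted p = 0.123). Processed copies of TXN are a further limit, since 6 of them held 17.4% of the counts of the gene and its copies, and with these summed into TXN the log2 fold change was −0.20 (adjusted p = 0.000790). TXNRD1 (ENSG00000198431, chr12:104215779-104350305, plus strand), the cytosolic reductase, measured 115, 103 and 109 CPM in SEM::mock and 78.4, 72.7 and 75.6 CPM in SEM::EGR3. No induced library reached the lowest control, and TXNRD1 fell by 30.6% (log2 fold change −0.52, SE 0.06, 95% interval −0.65 to −0.39, adjusted p = 8.05e-08). Its span holds RPL18AP3, a processed ribosomal protein copy on the same strand with 20014 counts of its own over the 6 libraries.

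Of 10 thioredoxin and glutaredoxin genes tested, TXN and TXNRD1 among them, 6 fell, 2 rose and 2 did not pass the test (median log2 fold change −0.23). The mitochondrial pair fell as well, TXN2 from 174 ± 10.1 to 140 ± 8.39 CPM (adjusted p = 7.52e-05) and its reductase TXNRD2 from 89.7 ± 1.13 to 52.8 ± 1.77 CPM (log2 fold change −0.76, SE 0.06, adjusted p = 1.29e-10). GLRX5, a mitochondrial glutaredoxin of iron-sulfur cluster assembly that erythroid cells need for heme, rose from 129 ± 2.02 to 172 ± 3.24 CPM (log2 fold change 0.41, SE 0.05, adjusted p = 4.37e-07).

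CAT (ENSG00000121691, chr11:34438925-34472062, plus strand) encodes catalase, the peroxisomal enzyme that splits hydrogen peroxide. It measured 65.0, 66.7 and 69.0 CPM in SEM::mock and 27.7, 27.3 and 26.7 CPM in SEM::EGR3. The 3 libraries of each line lay close together and far from the other line. CAT fell by 59.3%, from 66.9 ± 2.01 to 27.3 ± 0.469 CPM (log2 fold change −1.29, SE 0.07, 95% interval −1.44 to −1.14, adjusted p = 6.42e-14), the largest change among the 9 enzymes tested.

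Of the superoxide dismutases, SOD1 was higher and SOD2 lower in SEM::EGR3. SOD1 (ENSG00000142168, chr21:31659622-31668931, plus strand), the copper and zinc enzyme of the cytosol, measured 482, 461 and 499.7 CPM in SEM::mock and 533, 547 and 528 CPM in SEM::EGR3. All induced libraries were above all controls, by a margin of about the spread within a line. SOD1 rose by 11.5% (log2 fold change 0.16, SE 0.05, 95% interval 0.05 to 0.26, adjusted p = 0.00804), and the call was lost without SEM::mock replicate 2 (log2 fold change 0.12, adjusted p = 0.0657). SOD2 (ENSG00000112096, chr6:159669057-159745186, minus strand), the manganese enzyme of mitochondria, measured 68.7, 56.3 and 67.5 CPM in SEM::mock and 41.8, 36.4 and 38.9 CPM in SEM::EGR3. SOD2 fell by 39.2% (log2 fold change −0.70, SE 0.08, 95% interval −0.87 to −0.53, adjusted p = 4.29e-08). Its annotated span overlaps WTAP on the opposite strand, which held 66.4% of the counts of both genes, and the strand setting of the counting was not given in the sources used here, so reads in the overlap are uncertain.

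SOD3, the secreted dismutase, was not among the 10 genes but rose most of the family. The control libraries held 58, 73 and 74 counts and the induced libraries 3134, 1458 and 1801, or 12.3 ± 2.13 against 199 ± 2.88 CPM (log2 fold change 4.02, SE 0.09, adjusted p = 2.64e-22). Among the 3 dismutases its share of counts was 2.21% ± 0.344 in SEM::mock and 25.7% ± 0.473 in SEM::EGR3. The share of SOD1 was 86.3% ± 0.668 and 69.2% ± 0.815, and that of SOD2 was 11.5% ± 0.823 and 5.04% ± 0.359. Of the 5 genes listed as dismutases and catalase, 2 rose, 2 fell and 1 did not pass the test.

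NQO1 (ENSG00000181019, chr16:69706996-69726951, minus strand) reduces quinones by 2 electrons and is a classical target of NRF2. It measured 105, 93.5 and 96.9 CPM in SEM::mock and 51.1, 51.7 and 47.0 CPM in SEM::EGR3. The groups lay far apart, and NQO1 fell by 49.3%, from 98.6 ± 6.10 to 49.9 ± 2.59 CPM (log2 fold change −0.98, SE 0.07, 95% interval −1.12 to −0.84, adjusted p = 3.41e-12).

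The genes that work with these enzymes were taken from lists of glutathione metabolism, NRF2 regulation and targets, selenoproteins, NADPH oxidases and ferroptosis. Without the 10 genes the lists held 95 genes, of which 92 had a row and 81 were tested. Of the 81, 23 rose, 40 fell and 18 did not pass the test, 13 passed with a log2 fold change of at least 1 in either direction, and the median was −0.17. Over all tested genes 36.5% rose, 32.0% fell, 25.2% passed with a log2 fold change of at least 1 in either direction, and the median was 0.03.

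Enzymes that make and spend glutathione moved in both directions. Of 7 genes of glutathione synthesis and recycling tested, 4 fell, 2 rose and 1 did not pass (median −0.17). GCLM, the modifier subunit of the rate-limiting ligase, fell from 78.3 ± 6.88 to 44.5 ± 2.88 CPM (adjusted p = 9.50e-10), and GSS, the synthetase, fell from 119 ± 7.56 to 84.2 ± 2.61 CPM (adjusted p = 9.70e-08). GSR, which recycles oxidized glutathione for the peroxidases, fell from 108 ± 1.39 to 95.5 ± 5.37 CPM (adjusted p = 0.0191). GCLC, the catalytic subunit of the ligase, rose from 24.5 ± 2.25 to 29.3 ± 1.61 CPM (adjusted p = 0.0208), but leaving out SEM::mock replicate 3 gave an adjusted p of 0.138 and leaving out SEM::EGR3 replicate 3 gave 0.0743. SLC7A11, the cystine importer, was at 15.4 ± 1.88 and 15.8 ± 1.75 CPM (adjusted p = 0.879). Of 11 glutathione transferases tested, 8 fell and 2 rose (median −0.55). MGST1, a membrane transferase with peroxidase activity, fell from 90.7 ± 7.89 to 17.6 ± 0.580 CPM (log2 fold change −2.37, SE 0.08, adjusted p = 3.01e-18), and MGST2 fell from 197 ± 5.06 to 89.9 ± 4.62 CPM (adjusted p = 8.07e-15). GSTM2 rose from 7.50 ± 1.92 to 22.3 ± 1.58 CPM (adjusted p = 6.67e-10) and GSTZ1 from 18.0 ± 1.97 to 27.8 ± 0.317 CPM (adjusted p = 7.20e-06).

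Of 8 regulators of NRF2 tested, 3 fell, 2 rose and 3 did not pass the test (median log2 fold change −0.08). NFE2L2, the gene of NRF2, was at 48.8 ± 2.66 and 43.7 ± 3.35 CPM (adjusted p = 0.0980), and KEAP1, which marks NRF2 for degradation, was at 95.1 ± 0.568 and 97.5 ± 5.14 CPM (adjusted p = 0.665). SQSTM1, which sequesters KEAP1, was at 234 ± 7.12 and 233 ± 7.21 CPM (adjusted p = 0.943). BACH1, a repressor at the same DNA sites, rose from 36.1 ± 3.14 to 47.2 ± 3.00 CPM (adjusted p = 0.000180), and CUL3, the ligase scaffold, rose from 95.4 ± 2.75 to 109 ± 2.83 CPM (adjusted p = 0.00775). The small MAF partners MAFG and MAFK fell, with log2 fold changes of −0.42 and −0.40 (adjusted p = 1.00e-06 and 0.00102).

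Of 11 tested NRF2 target enzymes, NQO1, TXNRD1 and GCLM among them, 8 fell and 2 rose (median −0.60). AKR1B1, aldose reductase, rose from 56.0 ± 3.87 to 148 ± 6.58 CPM (log2 fold change 1.41, adjusted p = 1.64e-15), and EPHX1, an epoxide hydrolase, rose from 12.1 ± 1.90 to 28.4 ± 2.79 CPM (adjusted p = 2.01e-09). HMOX1, the inducible heme oxygenase, had no count in the control libraries and 13, 9 and 24 in the induced ones, which is at least 2.90-fold higher against 3 counts per SEM::mock library, and it did not pass the filter on low counts.

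**Figure D5:**
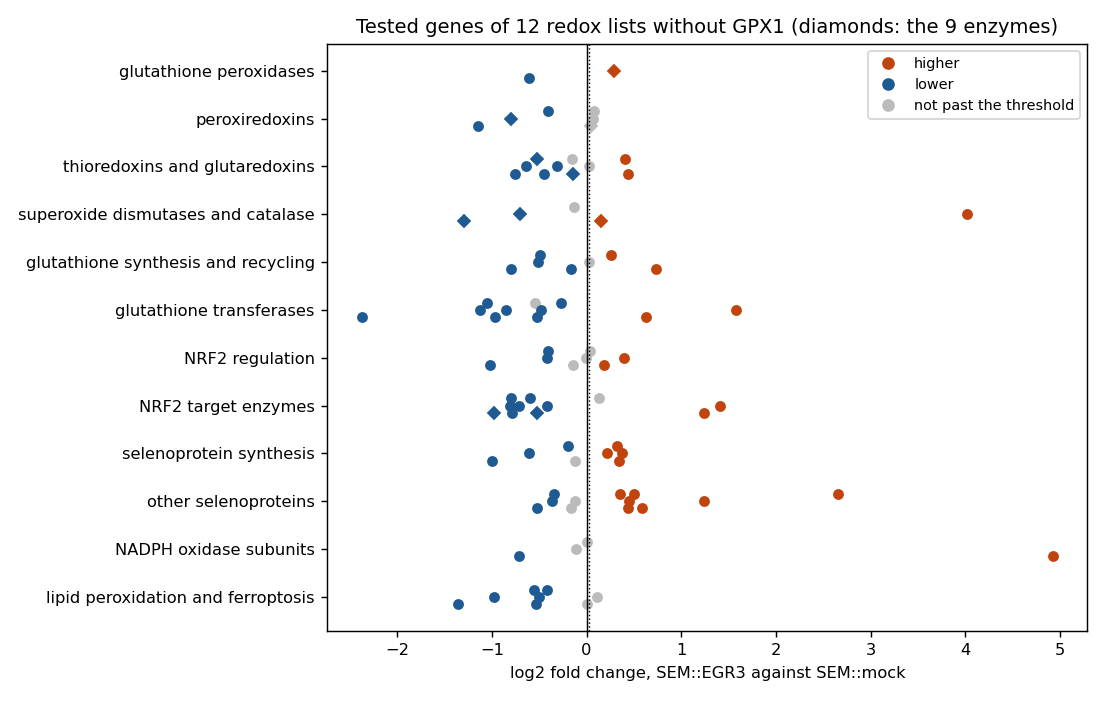
Log2 fold change of SEM::EGR3 over SEM::mock for the tested genes of the pathway lists without GPX1, 1 row per list, with diamonds for the 9 enzymes, circles for the others, gray for genes that did not pass the test, and a dotted line at the median of all tested genes. NCF4 at 4.92 and SOD3 at 4.02 lie farthest above 0 and MGST1 at −2.37 farthest below, and the glutathione transferases and NRF2 targets lie mostly below 0.

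The genes that place selenocysteine into GPX1, GPX4 and TXNRD1 showed no common direction. Of 8 tested, 4 rose, 3 fell and 1 did not pass (median 0.05). SECISBP2, which binds the selenocysteine insertion element of the messenger, rose from 27.9 ± 2.35 to 36.0 ± 1.68 CPM (adjusted p = 0.000691), and TRNAU1AP, a partner of the selenocysteine tRNA, rose from 28.98 ± 1.84 to 36.8 ± 3.31 CPM (adjusted p = 0.00213). PSTK, the kinase that primes this tRNA, fell from 26.3 ± 3.63 to 17.6 ± 1.91 CPM (adjusted p = 4.63e-05), and SCLY, which recovers selenium, fell from 20.7 ± 0.943 to 10.2 ± 0.691 CPM (adjusted p = 5.29e-08). Of 12 other selenoproteins, 7 rose, 3 fell and 2 did not pass (median 0.39). SELENOM rose from 7.15 ± 1.78 to 45.4 ± 2.10 CPM (log2 fold change 2.65, SE 0.12, adjusted p = 1.34e-15) and SELENOT, a protein of the endoplasmic reticulum, from 25.6 ± 2.08 to 59.6 ± 6.43 CPM (adjusted p = 1.48e-11). SELENOF fell from 169 ± 4.87 to 118 ± 5.57 CPM (adjusted p = 1.38e-08), and SELENOP, the selenium carrier of plasma, from 22.0 ± 1.82 to 17.2 ± 2.18 CPM (adjusted p = 0.00679).

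Sources of superoxide and the iron side of lipid peroxidation were also measured. Of 4 tested NADPH oxidase subunits, 1 rose, 1 fell and 2 did not pass. The one that rose was NCF4, the cytosolic subunit p40phox of phagocytes and B cells, whose counts were 17, 23 and 9 in the control libraries and 1366, 656 and 830 in the induced ones, or 2.87 ± 1.05 against 89.4 ± 2.02 CPM (log2 fold change 4.92, SE 0.13, adjusted p = 1.25e-20). Of 8 genes of lipid peroxidation and ferroptosis, 6 fell and 2 did not pass (median −0.52). FTL, the ferritin light chain that stores iron, fell from 3006 ± 75.0 to 1525 ± 28.2 CPM (log2 fold change −0.98, adjusted p = 2.52e-15), and TFRC, the transferrin receptor, fell from 172 ± 30.2 to 118 ± 13.7 CPM (adjusted p = 6.46e-06).

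Promoter sequence was searched for 2 motifs, since NRF2 binds the antioxidant response element and EGR factors bind a GC-rich site. RefSeq promoters (GRCh38.p14) matched 8 of the 10 genes with 14 start sites, while PRDX1 and SOD1 had no entry and were not searched. The 250 bases before each start were read on both strands. Among these 8 genes, the core of the antioxidant response element, TGACNNNGC, stood within these 250 bases for TXNRD1 only, at 2 of its starts. It stood in 10.9% of all promoters (3830 of 35116). The EGR motif, GCGNGGGCG, stood in promoters of GPX4, SOD2 and TXN and in 8.41% of all promoters. For GPX4 and SOD2 it stood at 1 start, and the other starts listed for each held none. Both percentages count single promoters, so they are not a like measure for genes with several starts. The matches are shown with 10 bases on either side, the motif in capitals and the gene's own strand as written, to give their setting.
TXNRD1 first match: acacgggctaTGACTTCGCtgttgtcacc
TXNRD1 second match: gtggatttctGCTTTGTCAttctgactct
GPX4 match: ggcgccgcccCGCCCCCGCaccttggcct
SOD2 match: tgtacggcaaGCGCGGGCGggcgggacag
TXN match: cgggcgcgcgCGCCCCCGCcacacgcacg
They lie, in this order, at chr12:104215670-104215698, chr12:104286920-104286948, chr19:1104597-1104625, chr6:159693393-159693421 and chr9:110256553-110256581. Of the 3 genes with the EGR motif, GPX4 rose and SOD2 and TXN fell. The 3 matches lie inside the annotated spans of these genes, and which starts are used was not tested. The 250 bases before the RefSeq start of GPX1, chr3:49358354-49358603, held neither motif. Nearly all of them lie inside the GENCODE span of GPX1, so the sequence before the GENCODE start was hardly searched. The NQO1 window, chr16:69726561-69726810, lies wholly inside the GENCODE span of that gene. For GPX1, NQO1 and the other genes searched, a missing motif says only that these letters are not in this window.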

How the data were processed

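The sample titles gave each group and replicate number, and the study's methods state the dose and time. Column headings that spell the gene ERG3 were read as SEM::EGR3. The authors deposited unnormalized counts for each gene, CPM values headed as TPM (the count divided by a library total, without length correction), and counts divided by a size factor (a signal scale). Only the counts were used, and every per-sample column had a sample (0 unmatched). The authors' own fold changes and p-values were not used. Per the submitters' processing notes, bcl2fastq, Bowtie2, HTSeq and GRCh38 were used, and versions, annotation and strand setting are not given in the sources used here.

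Genes were filtered with filterByExpr (minimum count 10, minimum total 15), which kept 15465 of 35410. Libraries were normalized by TMM, and the lines were compared over all 6 libraries with the quasi-likelihood test of edgeR 4.0.16 in R 4.3.3, with Benjamini-Hochberg adjustment over all tested genes and a threshold of 0.05. Standard errors were derived from the log2 fold change and the F statistic. The procedure was tested on simulated counts. DESeq2 1.42.0, other filters and scalings, left-out libraries, a replicate block and summed processed copies were tried as alternatives, the last being chosen after seeing the data. Intervals and detection limits cover counting error only, and 3 counts per library were taken as the limit.

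Positions are from GENCODE release 29 (GRCh38), which held 34339 of the 35410 identifiers (97.0%). From each pathway list up to 4 genes were named, the 2 largest and 2 smallest log2 fold changes among called genes whose libraries did not overlap and whose mean reached 20 CPM in the higher line. The remaining glutathione peroxidases, PRDX3, PRDX5, PRDX6, TXN2, GSR, SLC7A11, NFE2L2, KEAP1, SQSTM1 and HMOX1 were added for their role after their values were seen. Some genes that this rule or the marker lists would name are not reported here. The 10 genes, the lists and the tests were chosen with earlier results of these data known.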

Additional observations from a re-analysis of the deposited data

How the results depend on the processing

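Fold changes of 40 genes, the 10 enzymes among them, were recomputed under the alternatives and none of these reversed. Besides the enzymes and EGR3, these were called genes picked for the most extreme changes of their lists. GPX1 was picked on this same contrast. A reversal was therefore unlikely from the start for the picked genes, and its absence says little about them. The genes named only for their role, the neighbors of GPX1 and the markers were not recomputed. A threshold of a log2 fold change of at least 1 left 3896 of the 10594 called genes, 1 of the 8 called enzymes (CAT) and 13 of the 63 called pathway genes. Leaving out 1 library at a time gave 9922 to 10433 called genes, 7 to 8 enzymes and 59 to 64 pathway genes. DESeq2 called 9391 genes, 8 enzymes and 56 pathway genes, no filter 11968, 8 and 64, and a minimum of 10 counts in every library 8481, 7 and 61, GPX1 being dropped by that filter. The same replicate numbers did not pair the libraries (correlations of deviations −0.105, −0.0635 and −0.0340), and with a replicate block 10081 genes, 7 enzymes and 61 pathway genes were called. The call of TXN was lost with the replicate block (−0.14, adjusted p = 0.0630), with the 10-count minimum (−0.09, adjusted p = 0.123), without normalization factors and without SEM::EGR3 replicate 1, that of SOD1 without SEM::mock replicate 2, and that of GCLC with DESeq2 (adjusted p = 0.0810) and without SEM::mock or SEM::EGR3 replicate 3. PRDX1 passed only without normalization factors. That scaling moved the median of all genes by 0.0781 on the log2 scale and the share of higher calls from 53.2% to 59.4%. The causes were not tested. Over all alternatives the log2 fold change of CAT ran from −1.32 to −1.21, of NQO1 from −1.02 to −0.90, of PRDX2 from −0.83 to −0.72, of SOD2 from −0.80 to −0.62, of TXNRD1 from −0.57 to −0.44 and of GPX4 from 0.26 to 0.36. The limit of 3 counts over the whole group gave no bound for GPX1, since SEM::mock held 4 counts.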
